A study of Mus musculus with 21 samples.

Results

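The xenobiotic metabolism enzymes described here were 56 of the 33829 genes listed for a pre-treatment experiment in the midbrain of mice. They were chosen by their annotation, as the genes whose KEGG entry in that table holds the pathway Chemical carcinogenesis, with Ptgs2 left out of the 57 that carry it. The rule sets no level, but the genes listed for the pre-treatment experiment are only those with a count in at least 1 mouse. Detection there thus enters it. Among the genes listed for the delayed treatment experiment, where genes without counts are kept, 77 carry the pathway, Ptgs2 included. The annotation differs too, since the members Nat1, Ugt1a10, Ugt1a5, Ugt1a6b, Cbr1 and Mgst1 do not carry the pathway there. The pathway itself was picked with earlier results of these data known. All 56 were found by gene identifier among the 55385 genes listed for a delayed treatment experiment. By role, 22 members were glutathione transferases, 10 were alcohol, aldehyde and carbonyl oxidoreductases, 8 were cytochrome P450 enzymes and 7 were UDP-glucuronosyltransferases. The rest were the N-acetyltransferases Nat1 and Nat2, the epoxide hydrolase Ephx1, the sulfotransferase Sult1a1 and 5 other genes, which were Arnt, Chrna7, Hpgds, Kyat1 and Kyat3.

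RNA-seq counts came from 21 male C57BL/6 mice, aged 6 weeks by the labels, in 7 groups of 3, all injected i.p. over 10 days. In the pre-treatment experiment, control mice received ddH2O for 10 days, MPTP treated mice received ddH2O for 5 days and then MPTP at 30 mg/kg a day for 5 days, and the irisin pre-treatment group received irisin at 200 μg/kg a day for 5 days before the same MPTP. In the delayed treatment experiment the groups were control mice (ddH2O), irisin alone (ddH2O for 5 days, then irisin for 5 days), MPTP (5 days, then ddH2O for 5 days) and MPTP followed by delayed irisin treatment for 5 days. MPTP is a neurotoxin that brain cells convert to a mitochondrial complex I blocker taken up by dopaminergic neurons, and irisin is a hormone-like fragment of the muscle protein FNDC5. In the first experiment MPTP was the last agent given, and in the second 5 days of ddH2O or irisin followed it, so this interval and the experiment cannot be told apart. The methods describe hand-dissected nigral tissue where the labels say midbrain.

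Enzymes of this pathway act on foreign compounds in steps. Cytochrome P450 enzymes and oxidoreductases introduce or expose a reactive group, epoxide hydrolase opens the epoxides that can result, and glutathione transferases, UDP-glucuronosyltransferases, sulfotransferases and N-acetyltransferases attach a polar or masking group. The liver is the main site, and in the brain such enzymes are known from astrocytes, the vessel wall, the choroid plexus and neurons. Many are induced through the aryl hydrocarbon receptor Ahr, which pairs with the member Arnt to bind DNA, or through Nrf2, the sensor-controlled activator of antioxidant genes.

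The binding cores of these regulators were looked up in the promoters (250 bases before to 50 after the start of a gene, RefSeq, GRCm38.p6), and 47 of the 56 members had such an entry, with 56 promoters in all. GCGTG, the core of the Ahr and Arnt element, stood on either strand in 17 promoters of 16 members, which is 30.4% of them against 32.4% of all 32851 promoters. TGACNNNGC, the core of the Nrf2 element, stood in 8 promoters, or 14.3% against 12.4%. Both shares were close to those of all promoters. The windows below are every match in the 5 members with the highest FPKM (Gstm1, Gstm5, Gsta4, Mgst3 and Gstp1, of which Gsta4 had no promoter entry) and in the best known Ahr targets, Cyp1a1 and Cyp1b1, each with 10 bases on either side of the core, written 5′ to 3′ on the strand of the gene with the core (or its reverse complement) in capitals, and with the distance of the core from the annotated start.
Cyp1a1, chr9:57697549-57697573, plus strand, GCGTG at -54: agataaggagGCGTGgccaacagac
Cyp1b1, chr17:79715123-79715147, minus strand, reverse GCGTG at -76: tcccgcccctCACGCcccaccccct
Gstm1, chr3:108018035-108018059, minus strand, GCGTG at -76 (or -231 from another annotated start): ttctgtttcaGCGTGtgcaaaacag
Gstp1, chr19:4037911-4037935, minus strand, GCGTG at -13: ggtggcctacGCGTGcgtcctcact
Gstm5, chr3:107895802-107895830, plus strand, TGACNNNGC at -42: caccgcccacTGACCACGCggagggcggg
Gstm5, chr3:107895673-107895697, plus strand, reverse GCGTG at -171: caacatgactCACGCttcccgggta
Mgst3, chr1:167393849-167393873, minus strand, GCGTG at -22: ggtcccgaggGCGTGgccgcgcggg
In the Gstm5 window with TGACNNNGC the last 5 capitals are also a reverse match of GCGTG, so the 2 motifs overlap there. The promoters of Sult1a1, Cyp2e1, Ephx1 and Ugt1a7c held neither core. A match shows that the letters are present and nothing about binding.

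Levels are given as the deposited FPKM, which divide by gene length and so can be compared between genes. The group was dominated by glutathione transferases, which join glutathione to reactive compounds and lipid peroxidation products. They made up 83.4 to 88.0% of the summed FPKM of all members in mice of the first experiment, and 83.9 to 87.7% in mice of the second. Gstm1, Gstm5, Gsta4, Mgst3 and Gstp1 alone held 71.3% and 70.8% of the sum. The members took 0.0923 to 0.105% and 0.101 to 0.117% of all counts.

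Gstm1, a mu class transferase abundant in astrocytes, was highest, with 133 ± 7.43 FPKM (SD, 9 mice) in the pre-treatment experiment and 150 ± 17.7 (SD, 12 mice) in the delayed treatment experiment. Gstm5 came next with 90.2 ± 4.38 and 96.0 ± 7.53 FPKM. The lowest mouse for Gstm1 (122 and 115 FPKM) stood above the highest mouse for Gstm5 (98.0 and 108 FPKM) in each experiment. Gsta4, the alpha class enzyme known for clearing 4-hydroxynonenal, had 62.6 ± 3.47 and 56.3 ± 3.61 FPKM. Mgst3, a microsomal member, had 38.0 ± 4.21 and 63.3 ± 6.03 FPKM, and Gstp1, the pi class enzyme, had 37.9 ± 4.88 and 50.6 ± 4.33 FPKM. In the pre-treatment experiment the ranges of Mgst3 (32.5 to 44.8 FPKM) and Gstp1 (28.1 to 44.9 FPKM) overlapped, so their order is not set. Mgst1, the microsomal transferase of the outer mitochondrial membrane, had 7.27 ± 0.805 and 8.27 ± 0.718 FPKM.

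Outside the transferases, Ephx1, which hydrolyses epoxides, had 13.8 ± 1.53 and 19.3 ± 2.17 FPKM. Cbr1, a carbonyl reductase, had 10.7 ± 7.60 and 13.7 ± 8.44 FPKM. Adh5, the formaldehyde clearing alcohol dehydrogenase, had 9.43 ± 0.353 and 10.7 ± 0.653 FPKM. Adh5 and Cbr1 thus had close means and very different spread. Sult1a1, which sulfates phenols, had 8.22 ± 4.46 and 11.3 ± 2.48 FPKM. Hsd11b1, which regenerates active glucocorticoid and also reduces carbonyls, had 7.69 ± 1.20 and 7.41 ± 1.37 FPKM. Arnt, the partner of Ahr, had 3.44 ± 0.518 and 2.55 ± 0.462 FPKM, and Kyat1, a kynurenine aminotransferase, had 5.23 ± 0.449 and 5.46 ± 0.471 FPKM. Chrna7 is a nicotinic acetylcholine receptor subunit and no enzyme, and had 1.57 ± 0.272 and 1.76 ± 0.208 FPKM.

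The classes best known from the liver were at the low end. No UDP-glucuronosyltransferase reached a mean of 1 FPKM, and the highest of them were Ugt1a7c with 0.112 ± 0.0907 and 0.172 ± 0.138 FPKM, Ugt1a10 with 0.116 ± 0.138 and 0.0305 ± 0.106 FPKM and Ugt1a6a with 0.0482 ± 0.0349 and 0.0776 ± 0.0704 FPKM. Of the 8 P450 enzymes, 1 passed 1 FPKM in each experiment, which was Cyp3a13 with 2.76 ± 0.677 FPKM in the pre-treatment experiment and Cyp2e1 with 2.32 ± 2.06 FPKM in the delayed treatment experiment. Cyp1b1, an Ahr target of vessels and fibroblasts, had 0.511 ± 0.287 and 0.793 ± 0.372 FPKM. Cyp1a1, the classical Ahr target, had 0.0263 ± 0.0267 and 0.0570 ± 0.0476 FPKM, with a count of 0 in 4 of 9 and 3 of 12 mice. Nat1 had 1.23 ± 0.308 and 0.965 ± 0.162 FPKM and Nat2 had 0.475 ± 0.136 and 0.444 ± 0.163 FPKM. In all, 26 and 25 members had a mean of at least 1 FPKM, 16 and 14 were under 0.1 FPKM, and 17 and 15 had a count of 0 in at least 1 mouse. A count of 0 allows up to 3 counts, which is 0.0397 to 0.0450 CPM in mice of the first experiment and 0.0389 to 0.0614 CPM in those of the second. Such limits cover counting error only.

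**Figure D1:**
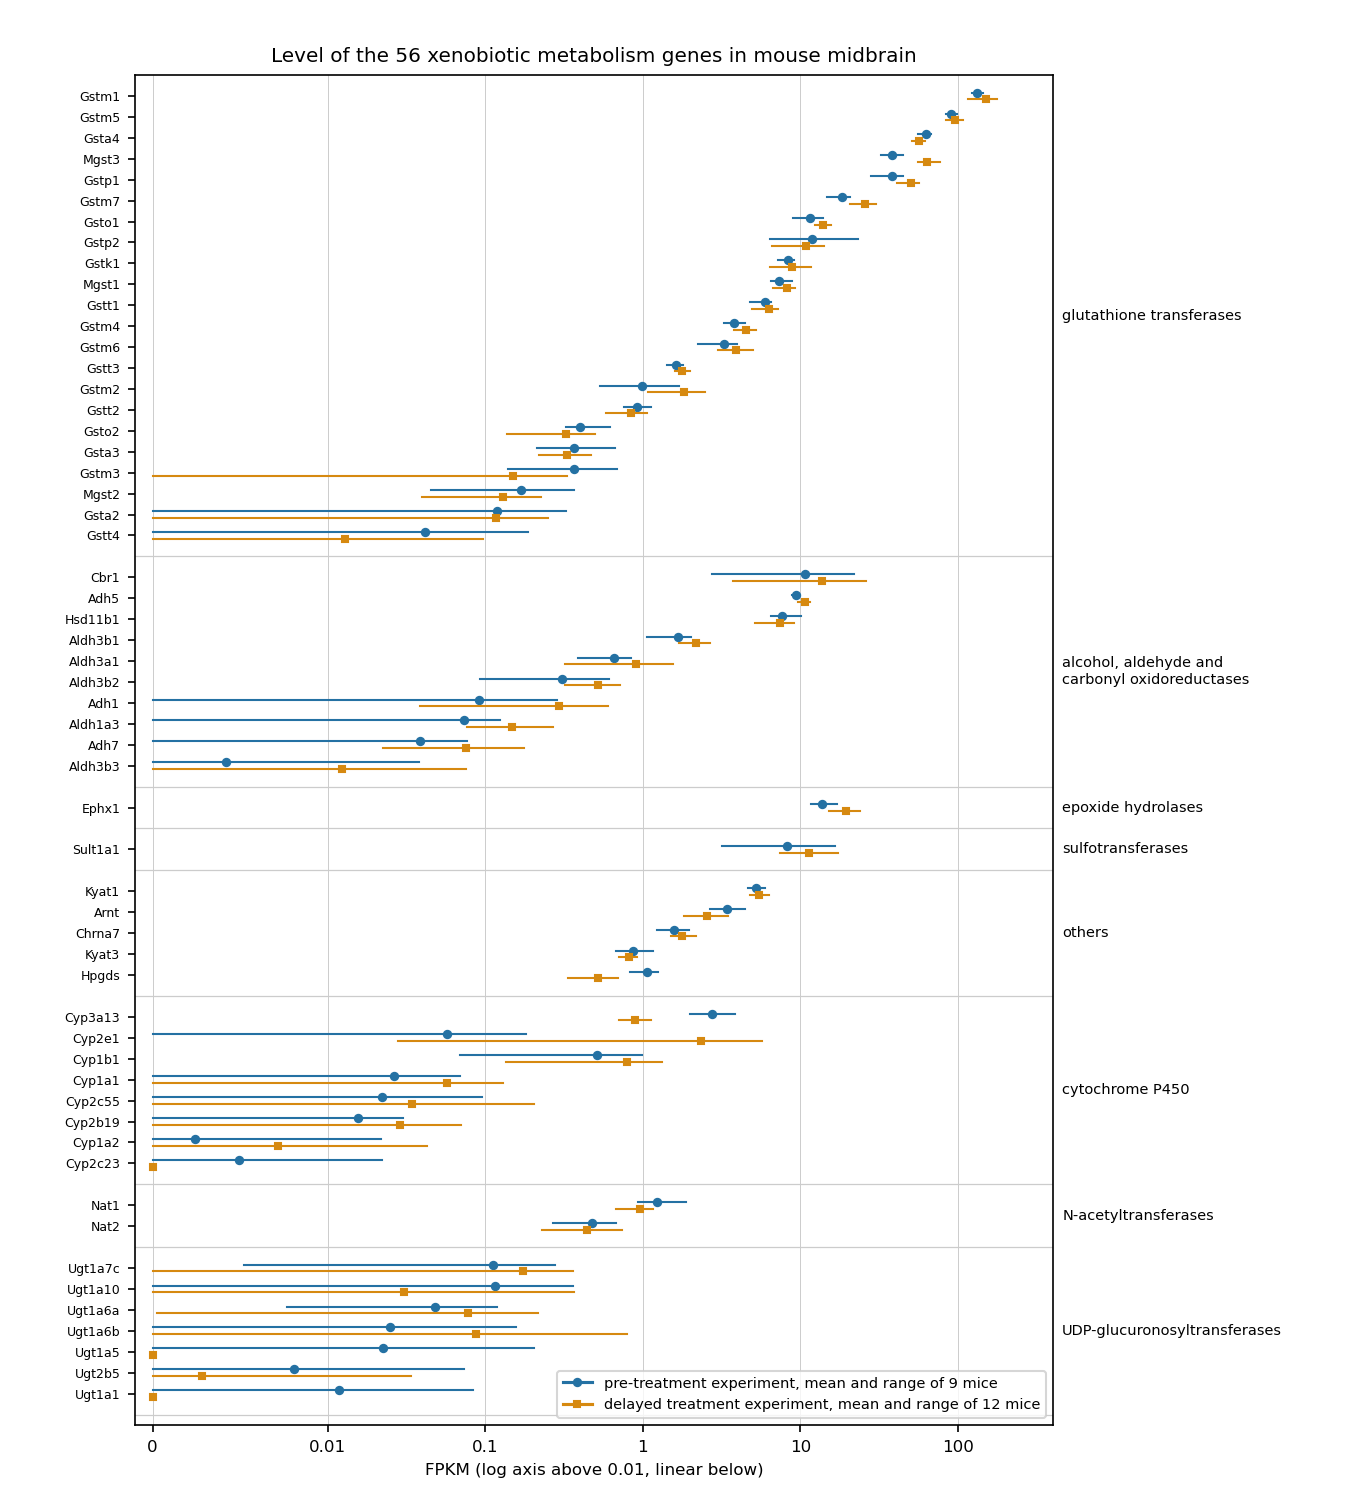
Level of each of the 56 members in FPKM (log axis above 0.01, linear below) as the mean (symbol) and the range (line) over the 9 mice of the pre-treatment experiment (blue circles) and the 12 mice of the delayed treatment experiment (orange squares), ordered by level within each class. Glutathione transferases fill the top of the range, led by Gstm1 with means of 133 and 150 FPKM, while the means of all 7 UDP-glucuronosyltransferases lie under 1 FPKM.

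Many members lie side by side in the genome, with 30 of the 56 having another member within 100 kb. The 7 mu class genes Gstm5, Gstm7, Gstm6, Gstm3, Gstm2, Gstm1 and Gstm4 span 149 kb at chr3:107895821-108044894. Their levels did not follow their order, since Gstm5 at 1 end (90.2 and 96.0 FPKM) and Gstm1 near the other (133 and 150 FPKM) were high and Gstm3 between them was at 0.367 and 0.149 FPKM. Gstm7 had 18.2 and 25.8 FPKM, Gstm4 had 3.79 and 4.50, Gstm6 had 3.27 and 3.88, and Gstm2 had 0.992 and 1.82 FPKM. Near-identical copies limit what reads can tell apart. Of 50-base stretches of a gene's exons, 33.7% of those of Gstp1, 54.3% of Gstp2, 28.8% of Gstm3 and 18.9% of Gstm1 occur in another gene, while Gsta4, Mgst3 and Cyp1b1 share none. The Ugt1a genes use the same last exons and share 52.1 to 80.2%, so reads cannot be assigned to 1 of them with certainty. Altogether 7 members shared over 50% and 36 shared under 5%. Sult1a1 shared 7.36% and overlaps exons of Sgf29, on the opposite strand, in 4.05% of its exonic bases, and the use of strand in counting is not given in the sources used here.

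**Figure D2:**
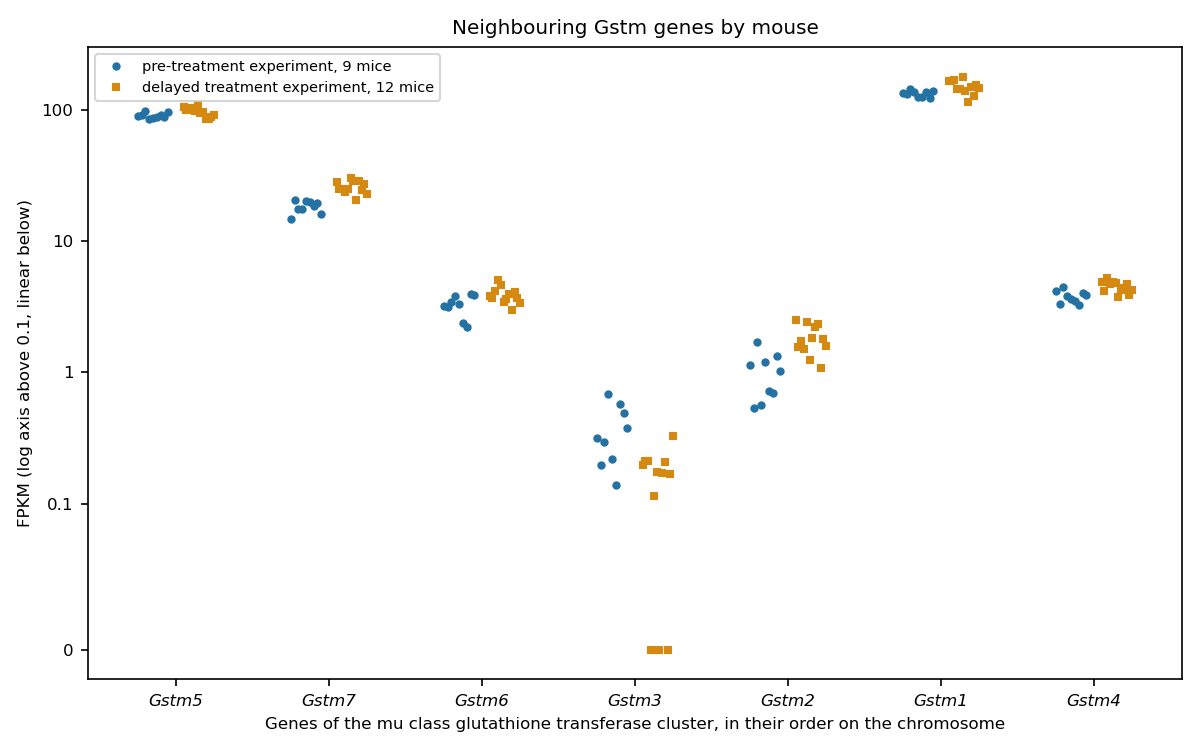
FPKM of the 7 neighbouring mu class glutathione transferase genes in each mouse (log axis above 0.1, linear below), in the order of the genes on the chromosome, with blue circles for the 9 mice of the pre-treatment experiment and orange squares for the 12 mice of the delayed treatment experiment. Gstm5 lies at 84.3 to 108 FPKM and Gstm1 at 115 to 176 FPKM over all mice, and Gstm3 between them sits below 1 FPKM in every mouse.

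The members differed widely in how much mice of 1 group varied. The SD within groups, on the log2(CPM + 0.1) scale, where CPM is the count scaled to 1 M counts of the library, after TMM scaling, had a median of 0.26 and 0.25 over all tested genes in the first and the second experiment. Adh5 (0.03 and 0.08), Gstm5 (0.05 and 0.07) and Gsta4 (0.09 and 0.07) were among the steadiest. Cbr1 (0.93 and 0.995) and Cyp1b1 (1.02 and 1.08) lay above the 95th percentile of all tested genes in each experiment. Cbr1 had 62.2, 17.2 and 56.3 CPM in the 3 control mice of the pre-treatment experiment and 12.8, 30.2 and 76.2 CPM in those of the delayed treatment experiment. It had 17.1, 59.1 and 18.6 CPM after irisin pre-treatment, and 72.8, 17.1 and 29.6 CPM after irisin alone. Each of these groups thus held mice with high and with low Cbr1, under the same treatment. Cyp1b1 had 0.466, 0.638 and 4.60 CPM after irisin pre-treatment, and 0.911, 5.88 and 7.67 CPM in control mice of the delayed treatment experiment.

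Libraries held 66.7 to 75.6 M (mega) counts in the first experiment, and 48.8 to 77.2 M in the second. The labelled midbrain expressed its dopaminergic markers (7 genes with Th and Slc6a3 among them, summed 454 to 846 CPM), with Pitx3 at 0 in some MPTP treated mice, and liver genes (2 of 4 listed in the first table, 4 in the second) summed to at most 1.62 CPM with Alb at 0 in mice of every group. Genes of the choroid plexus (Ttr, Folr1, Kl, Clic6 and Kcne2) summed to 9.99 to 25.6 CPM in 8 mice of the pre-treatment experiment and to 1640 CPM in MPTP replicate 2. In the delayed treatment experiment they summed to 37.3 to 1651 CPM, with the irisin alone group at 60.4 to 293 CPM and the highest mouse of the control, MPTP and delayed irisin groups at 1503, 1539 and 1651 CPM. In whole tissue, fewer cells of a type and less RNA per cell cannot be told apart.

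Each comparison was tested with edgeR over all 22641 genes of the pre-treatment experiment or 21922 genes of the delayed treatment experiment that passed the filter on low counts. Of the 56 members 46 passed it in each experiment, 45 of them in both, and the UDP-glucuronosyltransferases Ugt1a1, Ugt1a5, Ugt1a6b and Ugt2b5, the P450 enzymes Cyp1a2, Cyp2c23 and Cyp2c55, and Aldh3b3 and Gstt4 passed in neither. No member had an adjusted p under 0.05 with edgeR in any comparison, so the differences below are descriptions of these mice. A member that passed the filter through 1 group where it is high had to differ there, which applies to Cyp2e1 and Ugt1a10 in the pre-treatment experiment.

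MPTP treated mice were first compared with control mice in the pre-treatment experiment. The members lay slightly lower after MPTP, with 30 of 46 lower and 16 higher and a median log2 fold change of -0.08, where 49.6% of all tested genes were higher and their median was -0.00. An unadjusted p under 0.05 was found for 5 members (10.9%; background 6.03%), 2 higher (background 3.36%) and 3 lower (background 2.67%). The 5 include Cyp2e1, which passed the filter through the control mice compared here and so does not count as support. The share with an adjusted p under 0.05 was 0 of 46 members with a background of 0.0221%. DESeq2 gave 0 members by adjusted p and 6 of 56 at an unadjusted p under 0.05 (10.7%; background 4.99%). The groups did not overlap for 8 members (17.4%; background 11.6%).

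The P450 enzyme Cyp2e1, which oxidises ethanol and small solvents, had 0.224, 0.472 and 0.259 CPM in control mice and 0, 0 and 0.0266 CPM in MPTP treated mice. All 3 MPTP treated mice were below all controls. The groups held 65 and 2 counts, so control mice had 34.1 times the level of MPTP treated mice (95% interval 9.07 to 288, counting error only), and edgeR gave an adjusted p of 0.668. The gene did not exceed 0.472 CPM in any mouse of this experiment, and it passed the filter on low counts through these control mice. Ugt1a7c had 0.716, 0.280 and 0.893 CPM in control mice and 0.216, 0.0287 and 0.133 CPM in MPTP treated mice. Again no MPTP treated mouse reached a control, and the log2 fold change was -2.31 ± 0.72 (SE), with an adjusted p of 0.818 by edgeR. Its reads cannot be separated from those of other Ugt1a genes with certainty. The summed FPKM of the 7 UDP-glucuronosyltransferases overlapped, with 0.222 to 0.413 in control mice and 0.250 to 0.410 in MPTP treated mice.

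Sult1a1 lay on the other side, with 6.52, 5.58 and 10.4 CPM in control mice and 10.5, 12.5 and 10.8 CPM in MPTP treated mice. The groups were separated by a gap of under 1 CPM, and the log2 fold change was 0.59 ± 0.23 (SE), with an adjusted p of 0.823 by edgeR. Chrna7 had 6.74, 6.65 and 6.18 CPM in control mice and 10.0, 7.78 and 9.51 CPM in MPTP treated mice, a log2 fold change of 0.48 ± 0.14 (SE) with an adjusted p of 0.803 by edgeR. Cbr1 had an unadjusted p under 0.05 and a log2 fold change of -1.54, but the control mouse at 17.2 CPM lay between the MPTP treated mice at 7.96 and 20.0 CPM. Beside these values, all 5 choroid plexus genes had an unadjusted p under 0.05 and were higher, with summed levels of 9.99 to 13.9 CPM in control mice and of 11.1, 1640 and 11.4 CPM in MPTP treated mice. Without the MPTP treated mouse at 1640 CPM the log2 fold change was -4.38 for Cyp2e1, -1.84 for Ugt1a7c, 0.50 for Sult1a1 and 0.58 for Chrna7. The unadjusted p of Sult1a1 was not under 0.05 without this mouse, MPTP replicate 3 or control replicate 1 or 2. At an unadjusted p under 0.05, 1 of 7 dopaminergic, 1 of 4 microglial and 1 of 5 endothelial markers were lower and 1 of 5 mural cell markers was higher. The dopaminergic sums overlapped, with 513, 815 and 758 CPM in control mice and 529, 846 and 605 CPM in MPTP treated mice. The part of the choroid plexus or of these cells in the members' differences was not tested.

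Irisin pre-treatment was then compared with MPTP alone, which asks whether these genes differ when irisin is given before MPTP. This experiment has no group given irisin alone. An altered response to MPTP and an effect of irisin itself thus cannot be told apart. This comparison shares its MPTP treated mice with the one above. Of the 46 members 28 were higher and 18 lower after irisin pre-treatment, with a median log2 fold change of 0.07 where that of all genes was 0.00 and 50.7% were higher. An unadjusted p under 0.05 was found for 9 members (19.6%; background 6.22%), 7 higher (background 2.93%) and 2 lower (background 3.29%). The 9 include Ugt1a10, which passed the filter through the MPTP treated mice compared here, and Cyp2e1, which passed it through control mice. Neither counts as support. By adjusted p there were 0 with edgeR (background 0.0707%), where the smallest was 0.343, and 2 with DESeq2. The share of all genes at an adjusted p under 0.05 with DESeq2 is not given here, so these 2 are not set against it. At an unadjusted p under 0.05 DESeq2 gave 8 of 56 members (14.3%; background 5%). The groups did not overlap for 11 members (23.9%; background 14.2%). The count of 9 was 4 without MPTP replicate 1, 6 without MPTP replicate 2, 5 without MPTP replicate 3, and 8, 5 and 6 without irisin pre-treatment replicates 1, 2 and 3. In the fits without an MPTP treated mouse the members' shares were 8.51, 12.8 and 10.6%, with 6.05, 5.59 and 5.29% of all genes, and in those without an irisin pre-treated mouse they were 17.4, 10.6 and 13%, with 5.12, 5.23 and 5.04% of all genes.

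Sult1a1 had the smallest p of all members. It had 22.6, 19.0 and 27.9 CPM after irisin pre-treatment, against 10.5, 12.5 and 10.8 CPM in MPTP treated mice. Every mouse of the irisin pre-treatment group was above every other mouse of the experiment, the highest control being at 10.4 CPM. The log2 fold change was 1.04 ± 0.23 (SE), with an adjusted p of 0.343 by edgeR and an adjusted p of 0.00499 by DESeq2. The alternatives gave adjusted p-values of 0.00499 to 0.760, and leaving out single mice gave log2 fold changes of 0.89 to 1.16 with an unadjusted p under 0.05 each time.

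Ugt1a7c had 0.494, 1.33 and 0.810 CPM after irisin pre-treatment and 0.216, 0.0287 and 0.133 CPM in MPTP treated mice. The irisin pre-treatment group lay in the range of control mice (0.280 to 0.893 CPM) except for 1 mouse above it. The log2 fold change was 2.78 ± 0.72 (SE), with an adjusted p of 0.478 by edgeR and an adjusted p of 0.0247 by DESeq2. Ugt1a10, a neighbour with the same last exons, ran the other way, with 0.110, 0 and 0 CPM after irisin pre-treatment and 0.935, 0.501 and 0.693 CPM in MPTP treated mice (log2 fold change -4.22 ± 1.79, adjusted p of 0.783 by edgeR). In control mice it had 0, 0.487 and 0 CPM. Summed over the 7 UDP-glucuronosyltransferases, FPKM was 0.230 to 0.512 after irisin pre-treatment and 0.250 to 0.410 after MPTP. The sum was 0.222 to 0.413 in control mice, so the 3 groups overlapped. Whether reads moved between these genes was not tested.

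Mgst2, a microsomal transferase that also conjugates leukotrienes, had 0.727, 1.56 and 0.646 CPM after irisin pre-treatment and 0.201, 0.559 and 0.386 CPM in MPTP treated mice. The groups did not overlap, and the log2 fold change was 1.35 ± 0.49 (SE, adjusted p = 0.710 by edgeR). Without the mouse at 1.56 CPM it was 0.84, and its unadjusted p was not under 0.05 then or without MPTP replicate 1 or 3. Nat1, which acetylates arylamines, had 1.58, 1.67 and 1.51 CPM after irisin pre-treatment and 3.08, 2.11 and 2.30 CPM in MPTP treated mice, a log2 fold change of -0.65 ± 0.20 (SE, adjusted p = 0.594 by edgeR). Its unadjusted p was not under 0.05 without MPTP replicate 1. The irisin pre-treatment group was below control mice (1.77, 1.77 and 2.25 CPM) as well. Cyp2e1 had 0.0411, 0.0814 and 0.206 CPM after irisin pre-treatment, 24 counts in all against 2, which is 11.7 times the level of MPTP treated mice (95% interval 2.91 to 102, counting error only) and below every control mouse. edgeR gave it an adjusted p of 0.693, and without MPTP replicate 1 or 2 or irisin pre-treatment replicate 3 its unadjusted p was not under 0.05.

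The other members at an unadjusted p under 0.05 were Kyat3 (log2 fold change 0.38), the theta class transferase Gstt2 (0.33) and Cyp3a13 (0.54), with adjusted p-values of 0.727 to 0.769 by edgeR. Gstt2 had 4.84, 5.27 and 5.21 CPM after irisin pre-treatment, 4.48, 4.07 and 3.61 CPM after MPTP and 3.85, 3.92 and 3.69 CPM in control mice. The groups overlapped for Gstm1, with 230, 202 and 230 CPM after irisin pre-treatment and 225, 205 and 208 CPM after MPTP. Beside this comparison all 4 haemoglobin genes had an unadjusted p under 0.05 and were lower, with summed levels of 229, 430 and 453 CPM after irisin pre-treatment, 782, 806 and 546 CPM after MPTP and 527, 820 and 700 CPM in control mice. None of the 4 was at 0. Of 7 dopaminergic markers 2 were lower at an unadjusted p under 0.05, with sums of 529, 619 and 534 against 529, 846 and 605 CPM. Of 5 endothelial markers 2 were higher, Cldn5 (log2 fold change 0.53, adjusted p = 0.129 by edgeR) and Slco1a4 (0.32), and 2 lower, Pecam1 (-0.24) and Flt1 (-0.26), each at an unadjusted p under 0.05, with Ly6c1 at 0.26. Their summed levels were 228 to 236 CPM after irisin pre-treatment, 216 to 223 CPM after MPTP and 212 to 263 CPM in control mice, and none was at 0. Of 5 choroid plexus genes 3 were lower at an unadjusted p under 0.05, with sums of 10.3 to 25.6 CPM after irisin pre-treatment against 11.1, 1640 and 11.4 CPM. Of 5 astrocyte markers 1 was higher and 1 lower, and of 4 microglial markers 1 was higher, at the same threshold. The part of blood, neurons, endothelium, choroid plexus, astrocytes or microglia in the members' differences was not tested.

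**Figure D3:**
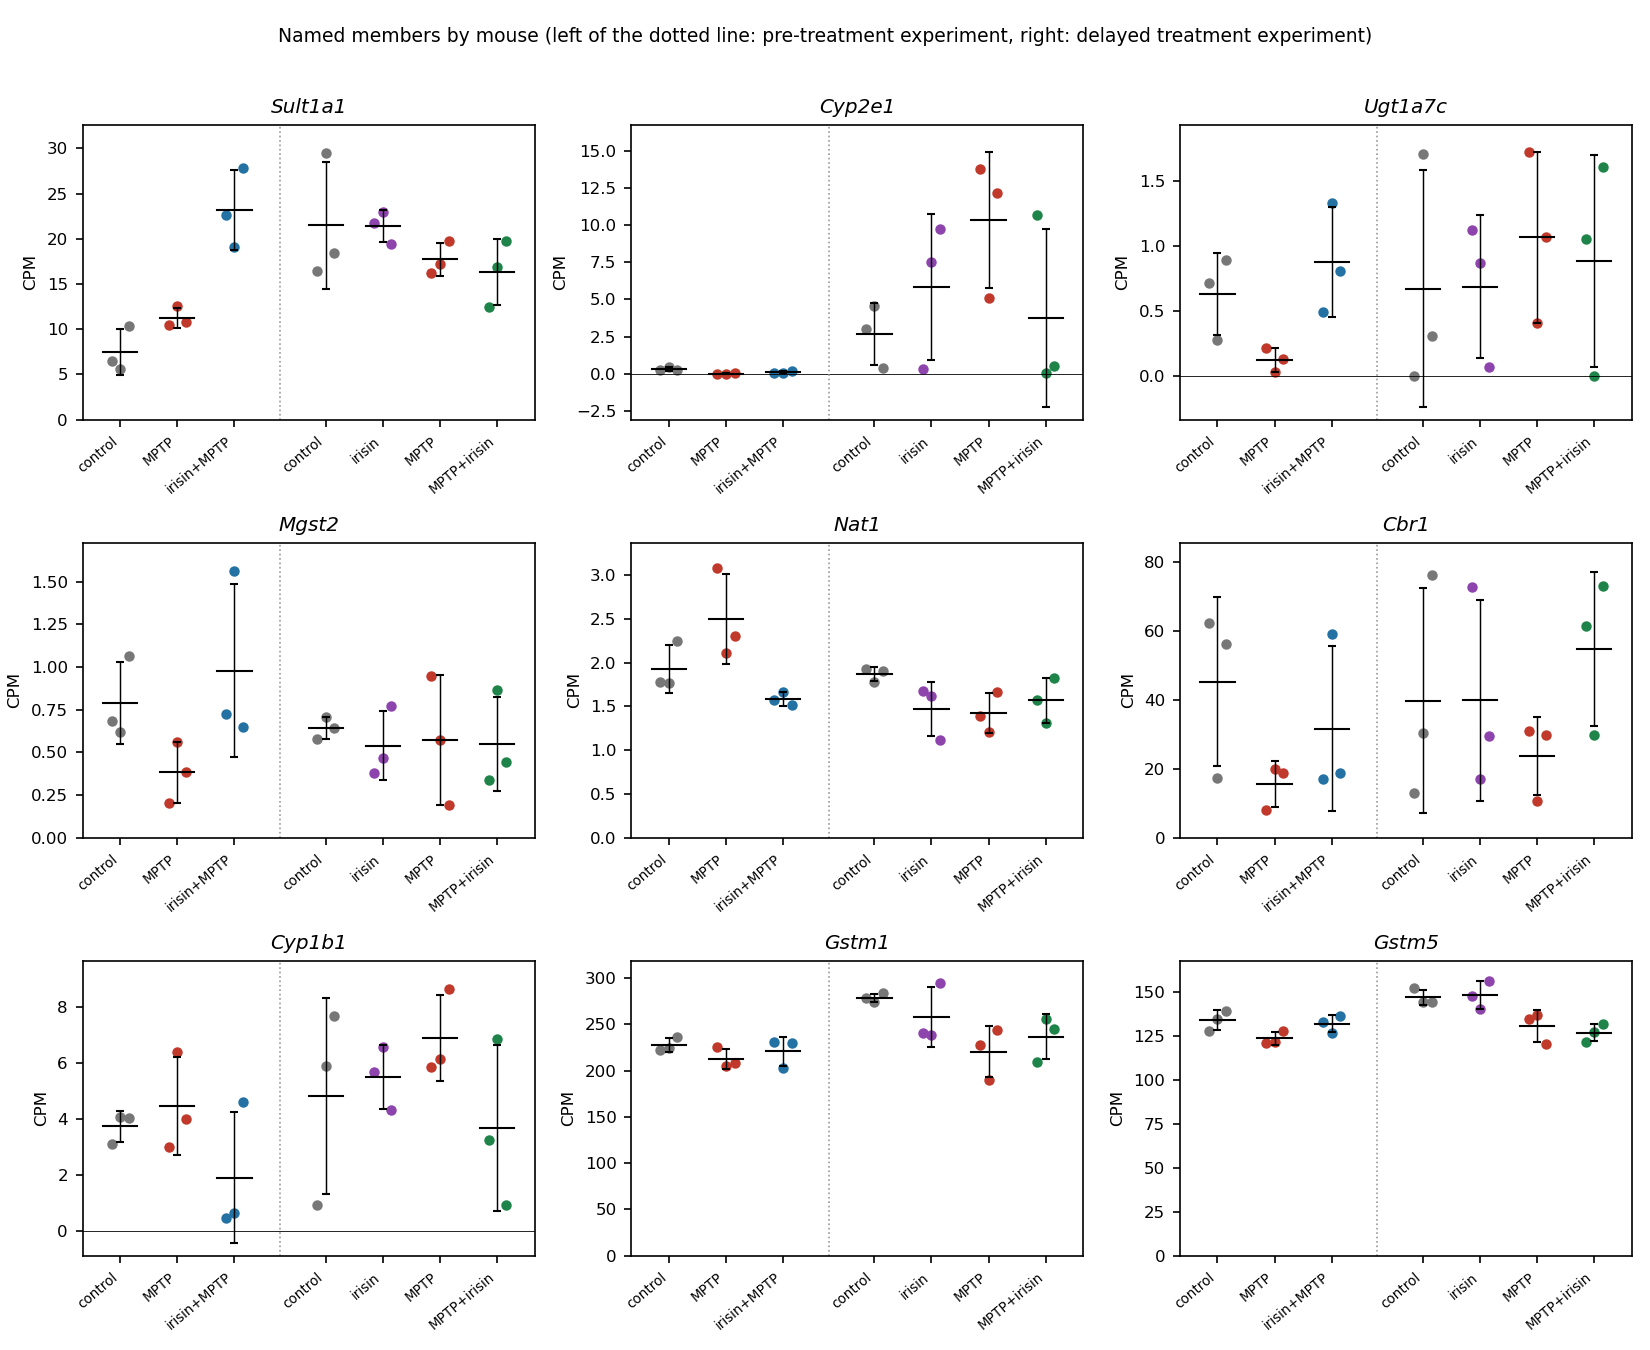
TMM-scaled CPM of 9 members in each mouse, with the mean (horizontal line) and SD (vertical bar) of each group of 3, the pre-treatment experiment left and the delayed treatment experiment right of the dotted line. Sult1a1 sits at 19.0 to 27.9 CPM after irisin pre-treatment, above the other 6 mice of that experiment, and Cbr1 and Cyp1b1 spread widely within groups.

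In the delayed treatment experiment MPTP treated mice were compared with control mice once more. The members again lay slightly lower, with 32 of 46 lower and 14 higher and a median of -0.10, where 49.7% of all genes were higher and their median was -0.00. An unadjusted p under 0.05 was found for 2 members, both lower (4.35%; background 8.33%, 4.32% for higher and 4.01% for lower ones), so the share was below that of all genes. By adjusted p there were 0 with edgeR (background 0.132%, smallest 0.419) and 0 with DESeq2. At an unadjusted p under 0.05 DESeq2 gave 2 of 52 members (3.85%; background 6.21%). The groups did not overlap for 8 members (17.4%; background 16.2%). The lower median rested on control replicate 1, without which it was 0.0047.

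The 2 members were those with the highest FPKM of all. Gstm1 had 278, 274 and 283 CPM in control mice and 228, 190 and 244 CPM in MPTP treated mice. All 3 MPTP treated mice were below the narrow range of controls, and the log2 fold change was -0.34 ± 0.11 (SE), with an adjusted p of 0.419 by edgeR. Gstm5 had 152, 145 and 145 CPM in control mice and 135, 137 and 121 CPM in MPTP treated mice, a log2 fold change of -0.17 ± 0.06 (SE) with an adjusted p of 0.489 by edgeR. Without MPTP replicate 3 or control replicate 1 the unadjusted p of Gstm5 was not under 0.05. Gsta4 (88.6, 88.4 and 84.8 against 77.3, 81.2 and 78.3 CPM) and Gsto1 (33.3, 34.0 and 35.9 against 31.5, 30.5 and 32.1 CPM) did not overlap either and had log2 fold changes of -0.15 and -0.13, with adjusted p-values of at most 0.628 by edgeR. Astrocyte markers (Aqp4, Gfap, Aldh1l1, Slc1a2 and Gjb6) had 0 of 5 genes at an unadjusted p under 0.05 by edgeR and overlapping summed levels, 2400 to 2518 CPM in control mice and 2446 to 2604 CPM in MPTP treated mice. Of the dopaminergic markers 4 of 7 were lower at an unadjusted p under 0.05, with sums of 667 to 701 CPM in control mice and 454 to 578 CPM in MPTP treated mice. Of 7 meningeal and perivascular fibroblast markers 1 was higher at that threshold. The part of astrocytes, dopaminergic neurons or fibroblasts in the members' differences was not tested.

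Sult1a1 had 16.4, 29.5 and 18.5 CPM in control mice of this experiment and 16.2, 17.2 and 19.7 CPM in MPTP treated mice, so the groups overlapped. Cyp2e1 had 3.04, 4.54 and 0.422 CPM in control mice and 13.8, 5.12 and 12.1 CPM in MPTP treated mice. These groups did not overlap, but with the spread of this gene edgeR gave a log2 fold change of 1.95 ± 1.41 (SE) and no unadjusted p under 0.05. Its direction was the opposite of that after MPTP in the pre-treatment experiment.

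Delayed irisin treatment was compared with MPTP alone, which asks whether irisin alters these genes once MPTP has acted. It shares its MPTP treated mice with the comparison above. Of the 46 members 18 were higher and 28 lower, with a median of -0.05 where 49.9% of all genes were higher. No member had an unadjusted p under 0.05 with edgeR (0%; background 3.9%, 2.06% for higher and 1.85% for lower ones), and none had an adjusted p under 0.05 (background 0.00456%). DESeq2 gave 0 by adjusted p and 1 of 52 at an unadjusted p under 0.05 (1.92%; background 3.24%). The groups did not overlap for 2 members (4.35%; background 10.7%), which were Mgst1 and Gstm2. Mgst1 had 15.1, 18.1 and 17.5 CPM after delayed irisin and 19.6, 18.8 and 19.3 CPM after MPTP alone (log2 fold change -0.18 ± 0.10, SE). Sult1a1 had 12.5, 16.8 and 19.7 CPM after delayed irisin, with 1 mouse below all those given MPTP alone and the others within their range. Cyp2e1 had 10.6, 0.0785 and 0.534 CPM, so that 1 mouse was near the MPTP treated mice and the other 2 were far below. At an unadjusted p under 0.05 by edgeR, 1 of 4 oligodendrocyte and 1 of 5 mural cell markers were lower. So was 1 of 7 meningeal and perivascular fibroblast markers, whose sums were 71.0 to 161 CPM after delayed irisin and 134 to 173 CPM after MPTP. The part of these cells in the members' differences was not tested.

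Irisin alone was compared with control mice, which asks what irisin does without the toxin, against the same control mice as MPTP above. Of the 46 members 17 were higher and 29 lower, with a median of -0.03 where 49.5% of all genes were higher. An unadjusted p under 0.05 was found for 2 members, both lower (4.35%; background 8.97%, 4.53% for higher and 4.44% for lower ones). By adjusted p there were 0 with edgeR (background 0.109%, smallest 0.443) and 0 with DESeq2. At an unadjusted p under 0.05 DESeq2 gave 3 of 52 members (5.77%; background 6.62%). The groups did not overlap for 8 members, all lower (17.4%; background 15.1%). Gstp1 had 98.5, 99.0 and 95.5 CPM in control mice and 85.0, 71.2 and 88.9 CPM after irisin alone, a log2 fold change of -0.26 ± 0.08 (SE) with an adjusted p of 0.443 by edgeR. Controls lay within 4 CPM of each other and above every irisin treated mouse. Aldh3a1, an aldehyde dehydrogenase best known from the cornea, had 3.46, 2.13 and 2.44 CPM in control mice and 1.48, 1.24 and 1.47 CPM after irisin alone (log2 fold change -0.94 ± 0.42, adjusted p = 0.552 by edgeR), and its unadjusted p was not under 0.05 without control replicate 1 or 3 or without any 1 of the irisin treated mice. Ephx1 had 52.7, 43.1 and 43.1 CPM in control mice and 37.2, 40.9 and 39.5 CPM after irisin alone, which did not overlap. Sult1a1 had 21.7, 22.9 and 19.5 CPM after irisin alone, inside the range of controls. Beside this comparison 1 of 5 choroid plexus genes was lower at an unadjusted p under 0.05, with the sums given above. So were 1 of 5 astrocyte, 1 of 5 mural cell and 1 of 7 meningeal and perivascular fibroblast markers. Astrocyte sums were 2290 to 2402 CPM after irisin alone and 2400 to 2518 CPM in control mice. The part of these cells in the members' differences was not tested.

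**Figure D4:**
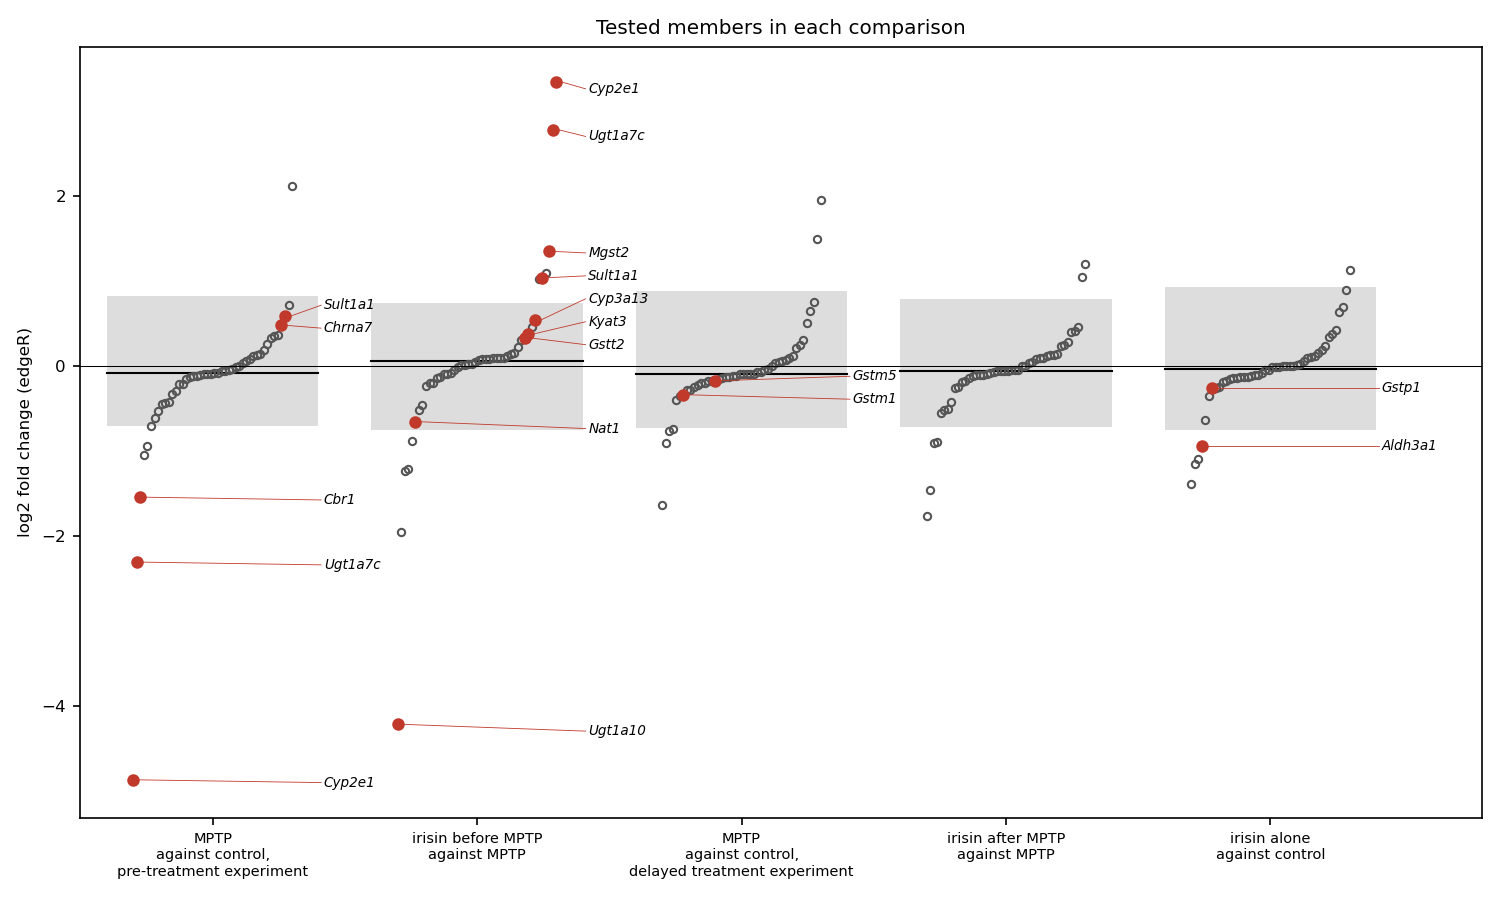
Log2 fold change by edgeR of the 46 members tested in each of the 5 comparisons, ordered within each, with members at an unadjusted p under 0.05 filled in red and named, the median of the members as a black bar and the 5th to 95th percentile of all tested genes as a grey band. Irisin before MPTP has 9 red points and irisin after MPTP has none.

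Whether the effects differed between experiments was tested over all mice in 1 fit of 23364 genes, 49 members among them. For the effect of MPTP 4 members had an unadjusted p under 0.05 (8.16%; background 5.68%) and 0 an adjusted p under 0.05 by edgeR (background 0.103%). DESeq2 gave 3 of 56 (5.36%; background 4.65%) and 0. The 4 by edgeR were Cyp2e1 (difference of log2 fold changes, pre-treatment minus delayed, -6.79 ± 2.48), Nat1 (0.76 ± 0.29), Sult1a1 (0.85 ± 0.34) and Ugt1a10 (9.46 ± 3.81), with a smallest adjusted p of 0.747. In the delayed treatment experiment Ugt1a10 had 0.954 CPM in 1 control mouse and 0 in all other mice. It passed the filter through the MPTP treated mice of the pre-treatment experiment, so it does not count as support here. For the effect of irisin on MPTP treated mice 5 members had an unadjusted p under 0.05 (10.2%; background 5.69%) and 0 an adjusted p under 0.05 by edgeR (background 0.077%). DESeq2 gave 6 of 56 (10.7%; background 4.58%) and 0. Among the 5 by edgeR Sult1a1 had the smallest p, with a difference of 1.16 ± 0.34 and an adjusted p of 0.497, followed by Nat1 (-0.79). Kyat3 (0.39), Gstk1 (0.40) and Adh5 (0.19) were the others. Both tests between the experiments use the same mice as the comparisons above. A member that stands out in both places is thus no separate support. Within the delayed treatment experiment, the effect of irisin with MPTP minus that without was at an unadjusted p under 0.05 for 1 of 46 members (background 5.57%) and at an adjusted p under 0.05 for 0 by edgeR (background 0.0411%). DESeq2 gave 1 of 52 (1.92%; background 4.26%) and 0. The member by edgeR was Mgst1, with -0.30 ± 0.13 (SE, adjusted p = 0.893).

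The other genes described numbered 33 and were regulators (Ahr, Ahrr, Arnt2, Tiparp, Nr1i2, Nr1i3, Rxra, Nfe2l2 and Keap1), electron donors and reductases (Por, Cyb5a, Cyb5r3, Nqo1 and Nqo2), further oxidising or hydrolysing enzymes (Ephx2, Fmo1, Fmo2, Fmo5, Cyp2d22, Cyp2j6, Cyp2j9 and Cyp46a1), glutathione enzymes (Gclc, Gclm, Gss and Gsr) and transporters (Abcb1a, Abcc1, Abcc4, Abcg2, Slco1a4, Slco1c1 and Slc22a8). Of these 32 were tested in each experiment and 0 had an adjusted p under 0.05 by edgeR. After irisin pre-treatment against MPTP 4 were higher (background 2.93%) and 2 lower (background 3.29%) at an unadjusted p under 0.05. Tiparp, an Ahr target that damps the receptor, was lower with a log2 fold change of -0.56 ± 0.10 (SE, adjusted p = 0.180), as was the thyroxine carrier Slco1c1 (-0.43). The nuclear receptor gene Nr1i3 (1.28), the efflux pump gene Abcc4 (0.45), the carrier gene Slco1a4 (0.32, also among the endothelial markers) and Cyp2d22 (0.23) were higher. After MPTP the count was 1 lower, Cyb5a, in the pre-treatment experiment (background 6.03%), and Arnt2 (0.17) higher and Cyp2j9 (-0.23) lower in the delayed treatment experiment (background 8.33%). Irisin alone left Nqo1 (-0.41) lower and Arnt2 (0.13) higher (background 8.97%), and delayed irisin treatment gave 0 at an unadjusted p under 0.05 by edgeR (background 3.9%).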

How the data were processed

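RNA-seq counts of 21 mice in 7 groups of 3 were analysed, grouped by the sample labels. Reads were sequenced on an Illumina NovaSeq and assigned to genes by the authors with featureCounts. Each experiment has 1 deposited table, holding raw counts and FPKM per gene and mouse, with 0 further columns of values per sample left unused. The deposited count was the unit of all tests, and the deposited FPKM was used for levels only, with its floor for a count of 0 in the delayed treatment table set to 0. The submitters' processing notes list HISAT, StringTie, edgeR and mm9 without a role, but the coordinates of 51 members equal those of GENCODE M21 on GRCm38, which was used. The pre-treatment table lists only genes with a count in at least 1 mouse.

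The tool for all tests was edgeR 4.0.16 under R 4.3.3. Low genes were dropped by filterByExpr (minimum count 10, minimum total 15), libraries were TMM-scaled, and all groups of an experiment entered 1 quasi-likelihood fit. Tests were two-sided, and Benjamini-Hochberg adjustment ran over every gene tested, with a threshold of 0.05. With 3 mice a group the labels number the samples and say no more of their origin, so p-values measure the spread between these samples, and no 2 of 1 group agreed within sampling noise. Steps were tested on simulated data. Alternatives were median ratio scaling, no filter, the replicate number as a block, only the compared groups in the fit, DESeq2 1.42.0, unadjusted p and leaving out each mouse. The same alternatives for the 3 tests of a difference were chosen after seeing the data.

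The members and lists were chosen with earlier results of these data known. Named members were the 3 with the highest FPKM in each class, in each comparison up to 5 with the smallest p under 0.05 and no overlap between groups, and Cyp1a1, Cyp1b1, Cyp2e1, Ephx1, Hsd11b1, Cbr1, Gstm1, Gstp1, Mgst1, Sult1a1 and Arnt. Others were named after their values were seen.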

Additional observations from a re-analysis of the deposited data

How the results depend on the processing

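No member passed an adjusted p under 0.05 under any alternative except DESeq2, which called 2 in irisin before MPTP against MPTP, Sult1a1 and Ugt1a7c. The share of all genes that DESeq2 called there is not given here. Under the rule of an unadjusted p under 0.05 the counts were 5, 9, 2 and 2 for MPTP (pre-treatment), irisin before MPTP, MPTP (delayed) and irisin alone, and 0 for irisin after MPTP. Leaving out single mice, the median log2 fold change of the members ranged from -0.12 to -0.02 for MPTP in the pre-treatment experiment and from -0.0039 to 0.08 for irisin before MPTP (lowest without irisin pre-treatment replicate 3). It ranged from -0.13 to 0.0047 for MPTP in the delayed treatment experiment (highest without control replicate 1), from -0.10 to 0.0242 for irisin after MPTP (highest without delayed irisin replicate 1) and from -0.11 to -0.0053 for irisin alone (lowest without control replicate 3). Of the values for counts of members called and for medians, 221 kept the count or moved by less than the spread, and 8 moved further. A change of sign was not checked for these values, and some medians above crossed 0. Of 193 values of named members 191 kept their direction and side of the threshold, and 0 reversed.

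The replicate numbers were not taken to pair the mice. The labels do not say whether same-numbered mice shared an origin, and their deviations from the group means correlated at -0.0765 to 0.101. With the replicate block 0 members passed an adjusted p under 0.05 in any comparison, and 6, 7, 2, 0 and 1 had an unadjusted p under 0.05 in MPTP (pre-treatment), irisin before MPTP, MPTP (delayed), irisin after MPTP and irisin alone, where 5.17, 5.59, 7.28, 3.51 and 7.62% of all genes did in the same fits. The low levels of the UDP-glucuronosyltransferases and most P450 enzymes, with counts of 0 in several mice, limit what these depths can show.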

Other observations

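Some members differed in level between the experiments across all groups, though each experiment was deposited as its own table and a difference in level cannot be told apart from one in time, library or processing. Cyp3a13 had 1.99 to 3.83 FPKM in the 9 mice of the pre-treatment experiment and 0.707 to 1.13 FPKM in the 12 mice of the delayed treatment experiment. Hpgds, the haematopoietic prostaglandin D synthase of microglia and mast cells, had 0.824 to 1.25 and 0.334 to 0.691 FPKM. Mgst3 ran the other way, with 32.5 to 44.8 and 55.6 to 76.2 FPKM. None of the 3 overlapped between the experiments. Cyp2e1 had 0 to 0.181 FPKM in the pre-treatment experiment and 0.0278 to 5.69 FPKM in the delayed treatment experiment, where mice of 1 group differed as widely as 10.6 and 0.0785 CPM after delayed irisin treatment. The microglial markers Aif1, Cx3cr1, P2ry12 and Tmem119 summed to 36.0 to 48.1 CPM and 39.6 to 71.2 CPM in the experiments.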
